A study of Mus musculus with 6 samples.

Results

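The 82 genes described here encode the proteins of the cytosolic ribosome and were measured in regulatory T cells sorted from mouse tumors. They were chosen by name from the 23420 genes of the deposited count table, as symbols of the Rpl and Rps series with Rplp0, Rplp1, Rplp2 and Rpsa. 51 belong to the large subunit and 31 to the small subunit, and rows named as pseudogenes were left out. The host mice were BALB/c animals with a Foxp3-GFP reporter, which marks regulatory T cells (Tregs), and every mouse carried a tumor grown from 10000 injected T11 cells, a transplanted line that models claudin-low triple-negative breast cancer. In the untreated group (libraries 1, 2 and 3) no antibody was given. In the anti-PD-1 group (libraries 4, 5 and 6) mice received 200 µg of the antibody J43, which blocks the inhibitory receptor PD-1, into the peritoneum, 2 injections per week. Tumors of both groups were taken at 150 mm2, and cells positive for GFP were isolated by sorting at above 90% purity. Whether each library came from its own mouse is not in the labels, so the p-values below take in no more than library-to-library spread, part of which may be technical.

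A ribosome is built from ribosomal RNA and one copy of nearly every ribosomal protein, except that the stalk proteins P1 and P2 are present in pairs. Messenger RNAs of ribosomal proteins start with a run of pyrimidines at the cap, the 5′ terminal oligopyrimidine or TOP motif, through which the kinase mTOR and the protein Larp1 set their translation and stability. T cells raise ribosome production when they leave rest and begin to grow and divide. Several ribosomal proteins also act away from the ribosome: Rpl5 and Rpl11 bind Mdm2, the ubiquitin ligase of p53, and Rpl22 is needed for development of αβ T cells.

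The start sites are shown because the pyrimidine run lies there, a feature that the choice by name did not use. RefSeq start-site windows of the build GRCm38.p6 were at hand for 62 of the 82 members, and 59 of these starts lay within 50 bases of the deposited gene start. Each window below runs from 15 bases before the start to 15 bases from it on, 5′ to 3′ on the coding strand. Capitals mark the longest unbroken run of C and T of 6 or more bases. The first 8 were picked, after their letters were seen, as windows in which the run holds the first transcribed base.
Rpl35 (chr2:39005117-39005146, minus strand): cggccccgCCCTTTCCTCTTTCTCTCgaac
Rpl28 (chr7:4792950-4792979, plus strand): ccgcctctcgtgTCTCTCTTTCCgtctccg
Rpl38 (chr11:114668565-114668594, plus strand): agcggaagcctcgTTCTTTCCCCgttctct
Rplp2 (chr7:141447636-141447665, plus strand): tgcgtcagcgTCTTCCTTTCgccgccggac
Rps6 (chr4:86857353-86857382, minus strand): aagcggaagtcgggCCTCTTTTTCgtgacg
Rps10 (chr17:27635230-27635259, minus strand): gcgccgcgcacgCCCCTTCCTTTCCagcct
Rps18 (chr17:33955651-33955680, minus strand): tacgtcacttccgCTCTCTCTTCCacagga
Rps27 (chr3:90213634-90213663, minus strand): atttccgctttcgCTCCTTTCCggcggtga
The next 5 are shown for contrast: the tissue-restricted paralog Rpl10l, the paralogs Rpl7l1 and Rpl22l1, and the members Rps16 and Rpl10, none of which has such a run across the annotated start.
Rpl10l (chr12:66284387-66284416, minus strand): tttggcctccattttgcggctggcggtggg
Rpl7l1 (chr17:46782642-46782671, minus strand): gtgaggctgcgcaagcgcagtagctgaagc
Rpl22l1 (chr3:28805493-28805522, plus strand): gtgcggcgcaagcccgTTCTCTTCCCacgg
Rps16 (chr7:28350674-28350703, plus strand): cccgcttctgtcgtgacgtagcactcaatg
Rpl10 (chrX:74270801-74270830, plus strand): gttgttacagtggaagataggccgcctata

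Over all 62 members with a window, 19 (30.6%) had their annotated start inside a pyrimidine run of 6 or more bases, against 7.41% of the 16375 genes with a window. Annotated starts can differ from the bases at which transcription begins in Tregs. Within 50 bases on either side of the start, the longest pyrimidine run had a median of 10 bases in members and 7 over all genes, while the longest purine run had a median of 6 in members and 7 over all genes. A pyrimidine run of at least 8 bases was present in 83.9% of members and 38.5% of all genes. The letters CTTTCC stood on the coding strand of that window in 30.6% of members and 5.20% of all genes, and on the opposite strand in 3.23% and 4.77%. CTCTTT, which can overlap a run that also holds CTTTCC, stood on the coding strand in 30.6% and 4.30%, and on the opposite strand in no member and 3.63% of all genes. The difference from all genes was thus on the coding strand. Over the whole 300 bases and both strands, CCGGAAG, a core recognised by ETS factors such as GABP, was found in 40.3% of members and 12.9% of all genes. AAGATGGC, a core recognised by Yy1, was found in 9.68% and 3.66%. TATAAA on the coding strand within 50 bases of the start was found in 8.06% and 4.35%. These matches are descriptions of letters, not sites.

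Total counts ran from 4766533 to 6686774 per library, and ribosomal RNA precursor counts at Rn45s took 21.4% to 25.1% of them. Untreated library 1 stood apart from the other 5. Its chi-square per degree of freedom against each other library was 23.7 to 30.8, against 9.71 to 14.9 for the remaining pairs, and limma's quality weighting gave it a weight of 0.359 where the others had 1.15 to 1.40. The 8 Treg and CD4 T cell markers were above 0 in every library and summed to 0.706%, 0.711% and 0.708% of counts in untreated libraries 1, 2 and 3 and 0.670%, 0.641% and 0.587% in anti-PD-1 libraries 4, 5 and 6, Foxp3 among them with 2238 to 2873 counts. Marker lists of CD8 T, NK, B, myeloid, dendritic, epithelial and red blood cells each held at most 0.00518% of counts in any library, with the macrophage marker C1qa at 0 in all 6. The neutrophil marker Ltf had 64, 102 and 104 counts untreated and 8, 12 and 19 after anti-PD-1. Its groups did not overlap (log2 fold change -2.53 ± 0.58, edgeR adjusted p = 0.136). The other neutrophil markers had at most 1 count in any library. Counts in the tumor cell and fibroblast list (0.104% to 0.180%) came mostly from Vim, which T cells express as well, and Col1a1 had 1 to 21 counts. Of the 3 endothelial markers, Cdh5 and Kdr were at 0 in all 6 libraries. The third, Pecam1, had 458, 361 and 437 counts in untreated libraries 1, 2 and 3 and 441, 595 and 434 in anti-PD-1 libraries 4, 5 and 6, 0.00660% to 0.0125% of counts. In CPM the groups did not overlap, with the treated libraries above the untreated ones (log2 fold change 0.48 ± 0.20, edgeR adjusted p = 0.551).

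Of the 82 members, 77 had counts in every library and 68 had at least 100 counts in every library. Levels of different genes were compared as CPM, read counts normalised to library size, per kilobase of deposited gene length (CPM per kb), as means over the 6 libraries. The highest was Rpl4, a large subunit protein that lines the exit tunnel, at 681 ± 109 CPM per kb (SD, n = 6), which was rank 65 of 23420 genes by CPM. Also among the 5 highest were Rpl32 at 655 ± 231, the stalk protein gene Rplp1 at 535 ± 201 and Rps20 at 530 ± 244 CPM per kb. Their ranges over libraries overlapped. They were 552 to 857 for Rpl4, 466 to 1038 for Rpl32, 365 to 930 for Rplp1 and 373 to 1007 for Rps20. Library by library, Rpl32 was above Rps20 throughout, while the order of every other pair of these genes changed. At the low end of the tested members stood Rps27 at 4.93 ± 3.90, Rpl7l1 at 8.54 ± 1.49, Rpl29 at 13.3 ± 4.77, Rpl35a at 15.2 ± 5.65 and Rps15a at 15.4 ± 3.55 CPM per kb. Each of these 5 overlapped its neighbour in that order over libraries. The deposited length of Rps15a is 5134 bases, the longest among the members, and its value per length carries that annotation. The proteins of one ribosome are made in near-equal numbers, yet the mRNA counts per length of most members were spread over more than an order of magnitude, as the plot of levels per length shows.

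**Figure D1:**
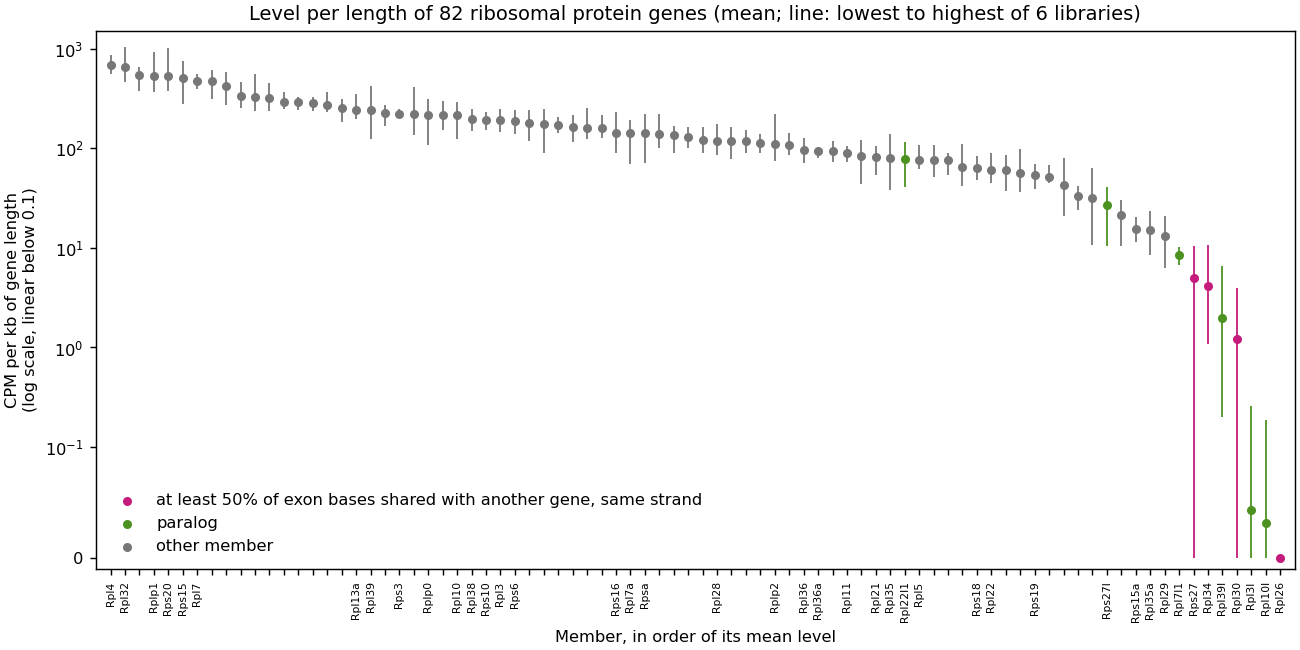
Mean level of each of the 82 members in CPM per kb of gene length, with lines from the lowest to the highest of 6 libraries; names are given for members described in the text, and the axis is logarithmic and linear below 0.1. The 4 members with at least 50% of exon bases shared with another annotated gene on the same strand (Rps27, Rpl34, Rpl30 and Rpl26) and the paralogs Rpl7l1, Rpl39l, Rpl3l and Rpl10l fill the low end.

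4 members that encode core ribosomal proteins had almost no counts. Rpl26 had 0 counts in all 6 libraries. A count of 0 allows up to 3 counts in a library, for counting error only. Rpl30 had 0, 0 and 9 counts in untreated libraries 1, 2 and 3 and 13, 2 and 1 in anti-PD-1 libraries 4, 5 and 6. Rpl34 had 4, 36 and 5 counts untreated and 9, 6 and 19 after anti-PD-1. Rps27 had 0, 6 and 11 counts untreated and 22, 29 and 19 after anti-PD-1. In the deposited annotation, these are the 4 members in which at least 50% of exon bases are shared with another gene on the same strand: 95.8% for Rpl26 (with Gm15772), 76.0% for Rpl30 (with Gm12191), 67.2% for Rpl34 (with Rpl34-ps1) and 60.0% for Rps27 (with Gm9846). Among the other 78 members the largest share was 0.0975%, in Rpl13a. The overlapping partners had totals of 0, 0, 1 and 0 counts over 6 libraries, so the missing counts were not listed under the partners. Over the whole table, 27 of 577 genes with such an overlap had counts high enough to be tested (4.68%), against 10324 of 22841 other genes (45.2%), and 75 of 78 members without it. The header of the count table shows no option for reads that fall on several genes. The part of the overlap in the low counts was not tested.

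In mm10, Rpl26 lies on chromosome 11 (68901566 to 68904534, plus strand), Rpl30 on chromosome 15 (34440508 to 34443276, minus strand), Rpl34 on chromosome 3 (130726831 to 130730308, minus strand) and Rps27 on chromosome 3 (90212667 to 90213648, minus strand). Ribosomal protein genes also have many processed pseudogenes, which can take or lose reads at near-identical stretches. With copies defined as GENCODE M21 processed pseudogenes at least 98% identical over at least 90% of the coding sequence, 25 members had none, 46 had 1 to 4, 9 had 5 to 9, and 2 had 10 or more (Rpl21 with 15 and Rpl7a with 10). The median level was 136, 119, 188 and 113 CPM per kb in these 4 classes. Across the 82 members, Spearman's rho between copy number and level was -0.13, as a description over genes that share libraries. Some pseudogene rows left out by name held counts of the size of members: Rps15a-ps6 had 405, 364 and 448 counts untreated and 247, 221 and 331 after anti-PD-1, and Rps15a-ps4 had 255, 458 and 593 untreated and 485, 370 and 782 after anti-PD-1. The sum over both rows exceeded Rps15a itself, at 440, 462 and 567 counts untreated and 336, 282 and 506 after anti-PD-1, so the level of Rps15a is uncertain. Rps3a1, a functional gene outside the naming rule, had 910 to 1590 counts; these 3 rows were picked after their values were seen.

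The treatment comparison asks whether tumor Tregs carry other levels of ribosomal protein mRNA when mice receive anti-PD-1. Of the 82 members, 76 had counts high enough to be tested, 45 of the large and 31 of the small subunit. Rpl10l, Rpl26, Rpl30, Rpl34, Rpl39l and Rpl3l were not tested. In edgeR's quasi-likelihood test, none of the 76 passed a Benjamini-Hochberg adjusted p of 0.05 over all 10352 tested genes, a threshold that 0.029% of all genes passed. The members' adjusted p ran from 0.521 to 0.997. At an unadjusted p under 0.05 stood 6 members with higher values after anti-PD-1, 7.89% of those tested against a background of 4.23%. Among them were Rps27, Rps16, Rplp1 and Rpl36. With lower values at that p stood 1 member, Rpl22l1, 1.32% against a background of 4.07%. The 3 anti-PD-1 libraries were all above the 3 untreated ones in 2 members, Rps27 and Rpl36, 2.63% against 7.18% of all genes, and all below in none, against 6.44%. Rps27 is in both counts of higher values. Its counts were high enough to be tested only through the anti-PD-1 libraries, so it is not read as support in either. DESeq2 and limma-voom with quality weights also called no member at an adjusted p of 0.05. The plot of fold changes shows the estimate and 95% interval of each tested member.

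**Figure D2:**
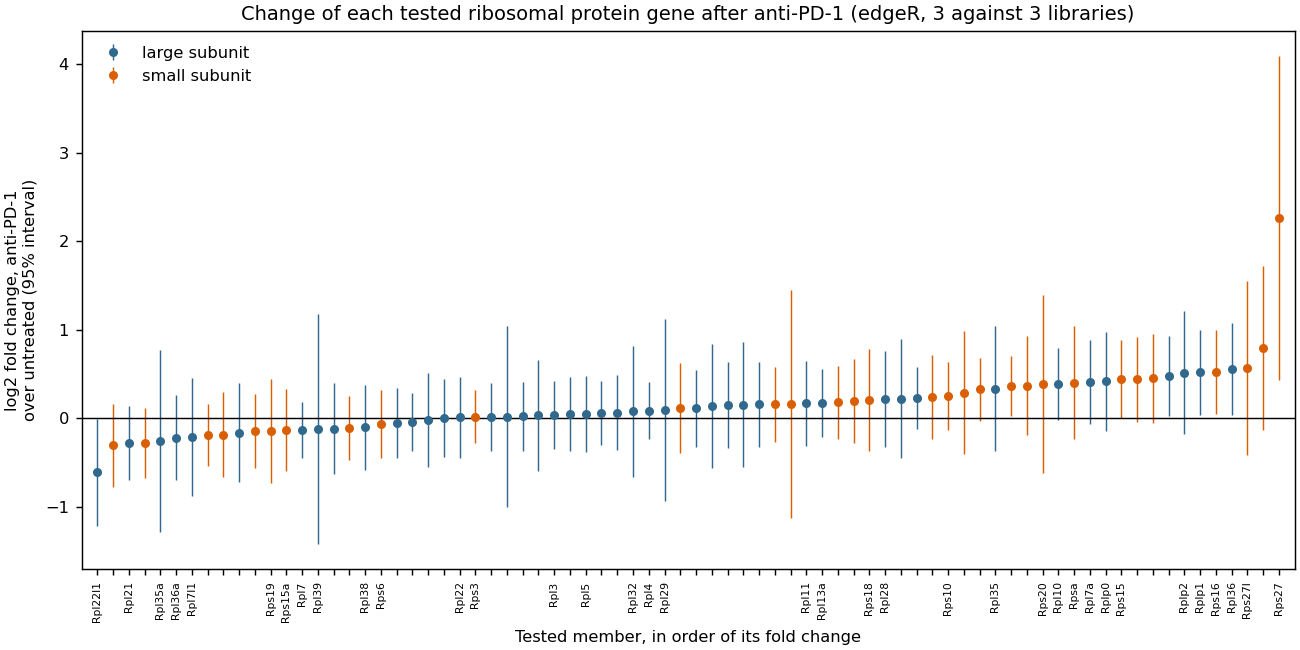
Log2 fold change of each of the 76 tested members after anti-PD-1 over untreated, from edgeR, with its 95% interval (3 against 3 libraries); names are given for members described in the text. 54 estimates lie above 0 and 22 below, most intervals cross 0, and Rps27, the tested member of fewest counts, has the widest interval.

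Fold changes were above 0 in 54 tested members and below 0 in 22. Their median log2 fold change was 0.11, against 0.0016 over all tested genes. It was 0.06 for the large subunit (32 above 0, 13 below) and 0.20 for the small subunit (22 above, 9 below). Single libraries moved these values. Without anti-PD-1 library 6 the median of the 77 members then tested was -0.13, with 25 above and 52 below 0. Without untreated library 1 the median of 78 members was 0.02, with 43 above and 35 below.

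The members as a set were high or low together in single libraries of both groups. Relative to each gene's own mean over 6 libraries, the median deviation of the 76 tested members in log2 CPM was -0.30, -0.08 and 0.19 for the untreated libraries (1, 2 and 3), and -0.12, -0.22 and 0.43 for the anti-PD-1 libraries (4, 5 and 6). All 76 members were above their own mean in anti-PD-1 library 6 and 66 were in untreated library 3, but only 18 to 21 in each of the other 4 libraries. Over all 10352 tested genes, 5209 to 5781 were above their mean in each library. The highest of the 6 values lay in anti-PD-1 library 6 for 51 of the 76 members. The lowest lay in untreated library 1 for 36 and in anti-PD-1 library 5 for 22. Each group thus held a library with high and libraries with low ribosomal protein mRNA. Within groups, the median SD of log2 CPM was 0.37 for the members and 0.39 for all tested genes. Among genes of at least 50 CPM, where counting error is smaller, it was 0.36 for 58 members and 0.21 for all 3186 genes. In bulk RNA, fewer cells of a type and less RNA per cell cannot be told apart.

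**Figure D3:**
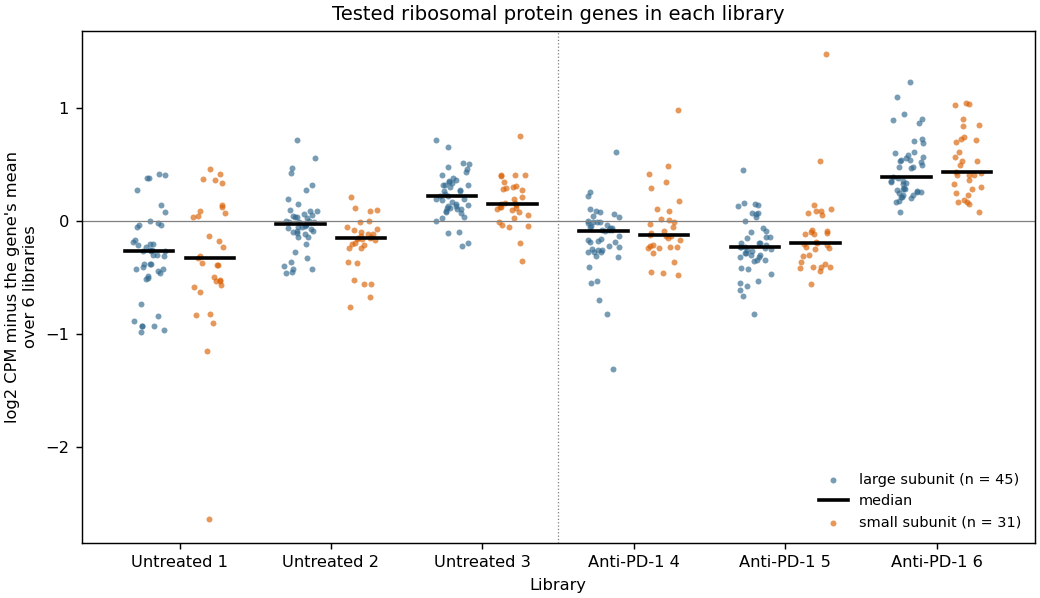
Log2 CPM of each tested member minus that gene's mean over the 6 libraries, by library, for 45 large and 31 small subunit members; black bars are medians. Every point of anti-PD-1 library 6 lies above 0, and the medians of both subunits are below 0 in 4 libraries, untreated 1 and 2 with anti-PD-1 4 and 5.

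Markers of cell state also differed between these libraries. The 9 resting T cell markers (Klf2, S1pr1, Ccr7, Tcf7 and others), all detected in every library, summed to 0.187%, 0.150% and 0.155% of counts in untreated libraries 1, 2 and 3 and 0.230%, 0.214% and 0.328% in anti-PD-1 libraries 4, 5 and 6. Of the 9, Klf2, a factor of quiescent T cells, passed in edgeR (log2 fold change 1.69 ± 0.17, adjusted p = 1.25e-05). All 9 had log2 fold changes above 0. In 3 of them every treated library lay above every untreated one, 33.3% against 7.18% of all genes. The resting markers were highest in anti-PD-1 library 6, which had the highest share of ribosomal protein counts, but their order over the other libraries was not that of the members. The 8 Treg and CD4 T cell markers, taken as a sum, took less of the counts in every treated library than in any untreated one. The lowest sum was the 0.587% of anti-PD-1 library 6. Gene by gene the list was split, with 3 log2 fold changes above 0 and 5 below (median -0.08). The treated libraries were all above the untreated ones in 2 of these genes and all below in 2, 50% against 13.6% of all genes. None of the 8 passed in edgeR. The 8 proliferation markers (Mki67, Top2a and others), likewise all detected, summed to 0.112%, 0.173% and 0.198% untreated and 0.119%, 0.0974% and 0.148% after anti-PD-1, highest in untreated library 3. This sum mixed genes of both directions, and none of the 8 passed in edgeR. Log2 fold changes were below 0 in 6, Mki67 (-0.82 ± 0.22) and Top2a (-0.50 ± 0.16) among them. They were above 0 in 2, Tyms (0.70 ± 0.46) and Tubb5 (0.02 ± 0.18). In 3 of the 8 every treated library lay below every untreated one, 37.5% against 6.44% of all genes, and in 0 above. The list of genes of translation elongation and other TOP mRNAs had its highest median deviation, 0.22, in the same anti-PD-1 library 6, as did ribosome biogenesis factors (0.33) and mitochondrial ribosomal proteins (0.39). Rn45s was highest there too, at 25.1% of counts. The part of these differences in the members' levels was not tested.

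Summed over all 82 members, ribosomal protein genes took 0.843%, 1.05% and 1.26% of counts in untreated libraries 1, 2 and 3 and 1.02%, 0.978% and 1.51% in anti-PD-1 libraries 4, 5 and 6. The means were 1.05% ± 0.209 and 1.17% ± 0.295 (SD, n = 3 each), and the groups overlapped. Large subunit genes took 0.485%, 0.631% and 0.739% untreated and 0.598%, 0.557% and 0.867% after anti-PD-1. Small subunit genes took 0.358%, 0.422% and 0.522% untreated and 0.426%, 0.421% and 0.642% after anti-PD-1. Both subunits followed the same order of libraries at the extremes, lowest in untreated library 1 and highest in anti-PD-1 library 6.

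The ratio of large to small subunit counts had a narrower range than either sum. It was 1.36, 1.49 and 1.42 in untreated libraries 1, 2 and 3 and 1.40, 1.32 and 1.35 in anti-PD-1 libraries 4, 5 and 6. The means were 1.42 ± 0.0687 and 1.36 ± 0.0413 (SD, n = 3 each), and the ranges overlapped. The ratio after anti-PD-1 was 0.956 of that untreated, and it was 0.934 to 0.980 of it when any 1 library was left out. Without the 4 members with overlapping annotation it was also 0.956, but these hold almost no counts and could not have moved it. No test was made of sums over members.

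**Figure D4:**
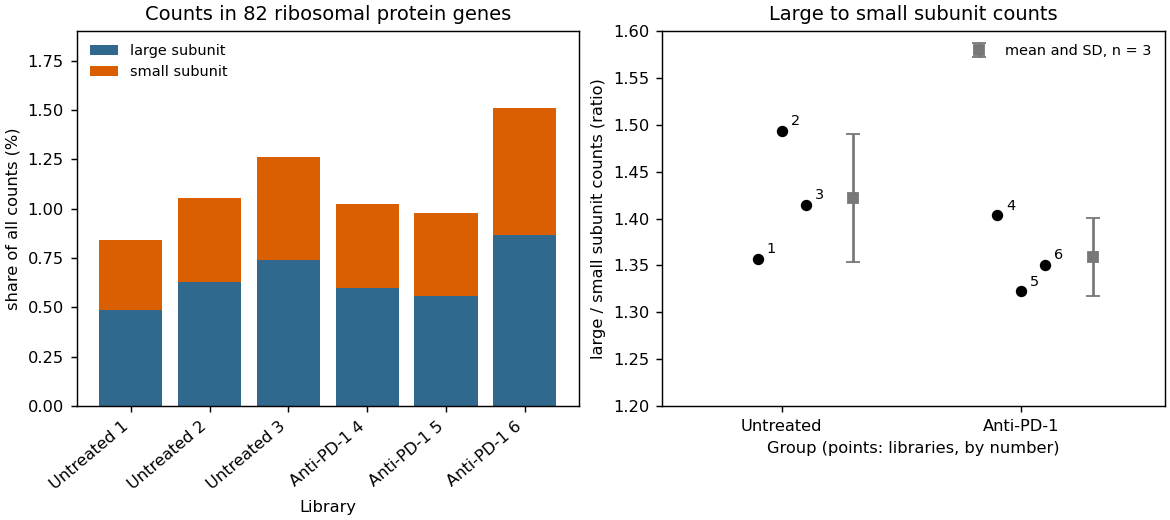
Left: share of all counts in the 51 large and 31 small subunit genes in each library, as stacked bars in percent. Right: ratio of large to small subunit counts per library (numbered points) with mean and SD per group, on an axis that does not start at 0; the untreated range (1.36 to 1.49) and the anti-PD-1 range (1.32 to 1.40) overlap.

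Among the stalk proteins, which recruit elongation factors, Rplp1 had 171, 243 and 205 CPM in untreated libraries 1, 2 and 3, against 210, 239 and 435 CPM with anti-PD-1 (libraries 4, 5 and 6). Only library 6 was above the untreated range. The log2 fold change of Rplp1 was 0.52 ± 0.23 (SE, edgeR adjusted p = 0.569). Rplp2, its partner, had 33.6, 32.9 and 54.6 CPM untreated against 37.3, 39.1 and 97.5 CPM with anti-PD-1, with the same single high library. Rplp0, the base of the stalk, had 148, 260 and 352 CPM untreated against 281, 311 and 424 CPM with anti-PD-1. Its log2 fold change of 0.42 ± 0.26 and that of Rplp2 of 0.51 ± 0.33 did not pass in edgeR (adjusted p = 0.710 and 0.725).

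In the large subunit, Rpl36 had 32.3, 28.8 and 33.2 CPM untreated against 40.4, 52.2 and 46.4 CPM with anti-PD-1. Every anti-PD-1 library lay above every untreated one, and library 6 was not the highest. The log2 fold change of Rpl36 was 0.55 ± 0.25 (SE), which did not pass in edgeR (adjusted p = 0.572). Rpl10, which joins the large subunit in a late cytoplasmic step, had 99.4, 165 and 179 CPM untreated against 175, 173 and 231 CPM with anti-PD-1, with untreated library 1 lowest (log2 fold change 0.39 ± 0.20, edgeR adjusted p = 0.628). Rpl4, the member of highest level, had 854, 915 and 1049 CPM untreated against 984, 785 and 1219 CPM with anti-PD-1, and its log2 fold change was 0.08 ± 0.15. Its 95% interval ran from -0.23 to 0.40. Rpl32 (321 ± 89.6 and 339 ± 160 CPM) and Rpl3 (258 ± 70.5 and 265 ± 50.6 CPM, SD, n = 3 each), which sits by the peptidyl transferase centre, had log2 fold changes of 0.08 ± 0.32 and 0.04 ± 0.18. Rpl29 (9.19 ± 5.24 and 9.66 ± 1.02 CPM) and Rpl35a (9.80 ± 1.51 and 8.31 ± 4.95 CPM), both of low level, had log2 fold changes of 0.09 ± 0.50 and -0.26 ± 0.50.

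The 5S ribonucleoprotein members that can hold back Mdm2 showed no call. Rpl5 had 126, 143 and 189 CPM untreated against 128, 127 and 220 CPM with anti-PD-1, and its log2 fold change was 0.05 ± 0.21 (edgeR adjusted p = 0.964). Rpl11 had 43.6, 47.4 and 59.0 CPM untreated against 61.0, 44.7 and 62.2 CPM with anti-PD-1 (0.17 ± 0.23, edgeR adjusted p = 0.879). Both genes overlapped between groups. Rpl38, known for its part in translating Hox mRNAs in the embryo, had 54.8, 89.2 and 83.1 CPM untreated against 61.0, 57.1 and 92.7 CPM with anti-PD-1. That gene had a log2 fold change of -0.10 ± 0.23 (edgeR adjusted p = 0.935).

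In the small subunit, Rps16 had 54.6, 73.8 and 89.6 CPM untreated against 90.0, 80.5 and 143 CPM with anti-PD-1. The groups overlapped between untreated library 3 and anti-PD-1 library 5, and the log2 fold change was 0.52 ± 0.23 (SE, edgeR adjusted p = 0.558). Rps15 had 146, 258 and 281 CPM untreated against 261, 271 and 394 CPM with anti-PD-1 (log2 fold change 0.44 ± 0.21, edgeR adjusted p = 0.604). In both genes the lowest value was in untreated library 1 and the highest in anti-PD-1 library 6, and the groups overlapped.

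Rps27, a small subunit protein with a zinc finger, had the largest fold change of the members, a fitted log2 value of 2.26 ± 0.89 (SE, edgeR adjusted p = 0.521). It rests on 0, 6 and 11 counts untreated and 22, 29 and 19 counts after anti-PD-1. Rps27 passed the filter on low counts only through the anti-PD-1 libraries, and 60.0% of its exon bases are shared with another gene, so its separation between groups is not read as support. Rps20 had 192, 215 and 284 CPM untreated against 212, 187 and 506 CPM with anti-PD-1. Its log2 fold change of 0.39 ± 0.41 was -0.21 without anti-PD-1 library 6. Rps15a had 82.9 ± 12.6 CPM untreated against 75.4 ± 25.1 CPM with anti-PD-1 (SD, n = 3 each; log2 fold change -0.14 ± 0.22).

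Rps6, the target of the S6 kinases downstream of mTOR, had 264, 228 and 312 CPM untreated against 235, 194 and 341 CPM with anti-PD-1. The groups overlapped and the log2 fold change was -0.06 ± 0.18 (edgeR adjusted p = 0.952). Rps3, which also acts in DNA repair and NF-kappaB signaling, had 439, 381 and 434 CPM untreated against 403, 392 and 471 CPM with anti-PD-1. The groups overlapped, and the log2 fold change was 0.01 ± 0.14 (95% interval -0.29 to 0.31). Rps19, whose human counterpart is often mutated in Diamond-Blackfan anemia, had 43.6, 31.5 and 32.9 CPM untreated against 30.0, 24.6 and 43.5 CPM with anti-PD-1 (-0.15 ± 0.28, edgeR adjusted p = 0.925).

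Paralogs, second genes of like sequence, were set beside the gene they resemble as a share of the pair's counts. Rpl22l1 can take the place of Rpl22, which represses its expression. It made up 26.4%, 23.7% and 28.5% of the counts of the pair with Rpl22 in untreated libraries 1, 2 and 3, and 16.5%, 23.8% and 17.9% in anti-PD-1 libraries 4, 5 and 6. The means were 26.2% ± 2.42 and 19.4% ± 3.89 (SD, n = 3 each), and the groups overlapped by anti-PD-1 library 5 alone. Rpl22l1 itself had 45.8, 32.5 and 55.3 CPM untreated against 19.7, 28.4 and 40.4 CPM with anti-PD-1. Its log2 fold change was -0.61 ± 0.29, the lowest of the members (unadjusted p = 0.0485, edgeR adjusted p = 0.597). It was the one member with a lower value at an unadjusted p under 0.05. All 3 anti-PD-1 libraries lay below the untreated mean of 44.5 CPM. The groups still overlapped in CPM, with anti-PD-1 library 6 above untreated library 2. Rpl22 had 128, 105 and 139 CPM untreated against 99.7, 90.6 and 185 CPM with anti-PD-1 (0.01 ± 0.22).

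**Figure D5:**
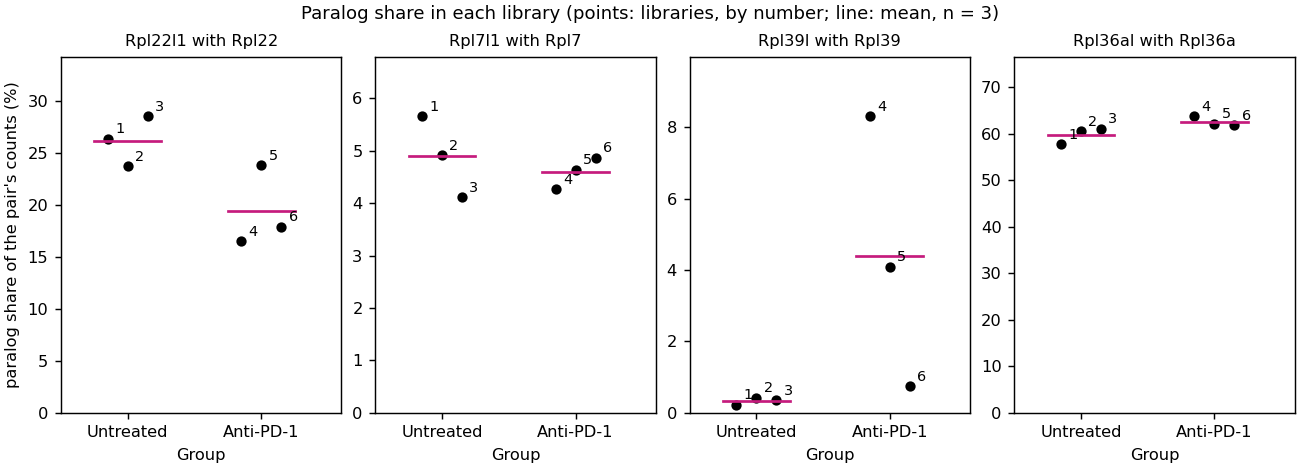
Share of a paralog in the counts of the pair with its parent gene, in percent, for each library (numbered points) with the group mean (line, n = 3). Rpl22l1 has means of 26.2% untreated and 19.4% after anti-PD-1 with 1 library overlapping, Rpl7l1 and Rpl36al are near-level, and Rpl39l rests on 1 to 28 counts.

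Rpl39l, a paralog of Rpl39 best known from male germ cells, had 1, 2 and 3 counts untreated and 28, 10 and 6 counts after anti-PD-1. It made up 0.335% ± 0.103 and 4.38% ± 3.79 of the pair's counts (SD, n = 3 each). The groups did not overlap in counts, but the gene was too low to be tested and only 2 libraries, both anti-PD-1, reached the level of the filter. Rpl39 had 71.6, 83.6 and 141 CPM untreated against 58.6, 48.4 and 166 CPM with anti-PD-1 (log2 fold change -0.13 ± 0.53), so libraries 4 and 5 were lowest and library 6 highest. Rpl7l1, a nucleolar relative of Rpl7, made up 4.89% ± 0.774 of the pair's counts untreated and 4.59% ± 0.302 after anti-PD-1. Rpl7 had log2 fold change -0.13 ± 0.15 and Rpl7l1 -0.21 ± 0.32. Rps27l, a p53 target, had 30, 36 and 113 counts untreated and 75, 58 and 90 counts with anti-PD-1 (0.56 ± 0.48, edgeR adjusted p = 0.796). It held 66.7% to 100% of the counts of the pair with Rps27, whose own counts are near 0 as described above. Rpl3l, a striated muscle gene, had 2 counts in 1 library, and the testis gene Rpl10l had 1 count in 1 library.

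4 ribosomal genes fell outside the naming rule but within the list of such genes. Gnb2l1 (Rack1), a scaffold on the small subunit, had 454, 640 and 594 CPM untreated against 606, 653 and 879 CPM with anti-PD-1. Its log2 fold change was 0.34 ± 0.16 (edgeR adjusted p = 0.596). Fau, a fusion of a ubiquitin-like protein with a small subunit protein, stood at 0.16 ± 0.20. Rpl36al, an expressed copy of Rpl36a, made up 59.8% ± 1.82 of the pair's counts untreated and 62.6% ± 1.04 after anti-PD-1, all 3 anti-PD-1 libraries being higher. Rpl36al itself had a log2 fold change of -0.05 ± 0.20 and Rpl36a of -0.22 ± 0.23, and neither passed in edgeR (adjusted p = 0.962 and 0.833). None of the 4 passed at an adjusted p of 0.05 in edgeR, DESeq2 or limma-voom, and 1, Gnb2l1, had an unadjusted p under 0.05 in edgeR.

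Genes that build or regulate ribosomes gave no call either, in edgeR, DESeq2 or limma-voom. Of 70 ribosome biogenesis factors, all tested, 0 passed and 2 stood at an unadjusted p under 0.05, both higher (2.86% against 4.23% of all genes). Their median log2 fold change was 0.05. Bop1, a factor of large subunit maturation, had 10.2, 15.4 and 8.94 CPM untreated against 23.9, 28.1 and 29.1 CPM with anti-PD-1. The groups did not overlap, and its log2 fold change was 1.24 ± 0.36 (edgeR adjusted p = 0.383). Rcl1, of small subunit processing, had 0.320, 8.04 and 11.3 CPM untreated against 22.6, 11.8 and 17.1 CPM with anti-PD-1, with untreated library 1 near 0 (1.42 ± 0.54, edgeR adjusted p = 0.496). Wdr12, a partner of Bop1, had a log2 fold change of -1.25 ± 0.62, opposite in sign, and Heatr1, needed for transcription of ribosomal RNA, of -0.45 ± 0.22.

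Of 22 genes of translation elongation and other TOP mRNAs, 0 passed in edgeR and 1 had an unadjusted p under 0.05 with higher values, 4.55% against 4.23% of all tested genes. That was Snhg12, a host gene of small nucleolar RNAs. It had 4.96, 4.11 and 5.73 CPM untreated against 9.10, 11.2 and 13.0 CPM with anti-PD-1 (log2 fold change 1.15 ± 0.51, edgeR adjusted p = 0.560). Gas5, another such host gene, stood at 0.33 ± 0.19, Eif3k at 0.39 ± 0.24 and Hnrnpa1 at -0.96 ± 0.51, and the list's median was -0.04. Of 26 tested regulators, 0 passed and 1 had an unadjusted p under 0.05 with lower values, 3.85% against 4.07% of all tested genes. That was Mxi1, a Max-binding antagonist of Myc, at 174 ± 59.7 CPM untreated against 112 ± 16.8 CPM with anti-PD-1 (SD, n = 3 each; log2 fold change -0.63 ± 0.21, edgeR adjusted p = 0.459). Larp4 (-0.36 ± 0.18), Tbpl1 (-0.45 ± 0.25) and Eif4ebp1, the translation repressor that mTOR inactivates (-1.14 ± 0.70), had lower estimates that did not pass. In 4 of the 26 every treated library lay below every untreated one, 15.4% against 6.44% of all genes, and in 0 above. These were Larp4, Eif4ebp1, Gabpa (-0.23 ± 0.18) and Yy1 (-0.23 ± 0.17). Of 69 tested mitochondrial ribosomal protein genes, 0 passed and 3 had an unadjusted p under 0.05, all higher, 4.35% against 4.23% of all tested genes. These were Mrpl33 (0.82 ± 0.36), Mrps15 (1.02 ± 0.45) and Mrpl28 (1.28 ± 0.61). Mrpl18 stood at -0.56 ± 0.27. The median of that list was 0.12, near that of the cytosolic members.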

How the data were processed

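RNA was sequenced from 6 libraries of sorted tumor Tregs, made with the NuGEN Ovation SoLo kit per the labels. The authors deposited raw fragment counts for each gene, from featureCounts 1.5.2, strand setting 1 and UCSC genes of the mm10 build, per the file headers. FastQC, bcl2fastq and DESeq2 appear as well in the submitters' processing notes. How duplicates were handled and how the aligner was set is not given in the sources used here. 1 unnamed column was not used.

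Members and lists were chosen with earlier results of these data known. Genes passed edgeR's filterByExpr (minimum count 10, minimum total 15), and 10352 genes with 99.8% of counts remained. edgeR 4.0.16 in R 4.3.3 (TMM scaling, robust quasi-likelihood test, two-sided) was fitted on all 6 libraries with treatment as the only term. Adjusted p-values are Benjamini-Hochberg values over all tested genes. CPM values are scaled by TMM, and log2 CPM has a prior count of 2. The count tests were tested on simulated data. For every pair of libraries the chi-square of counts was at least 9.71 per degree of freedom, so none was counted as a copy. Alternatives were DESeq2 1.42.0, limma-voom (limma 3.58.1), other scalings and filters, and leaving out each library.

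Named with values were the 10 tested members of smallest unadjusted p, the 5 of highest and the 5 tested of lowest CPM per kb, all paralogs with their parents, members with a known role outside the ribosome, and the 4 genes of smallest p of each other list. Some genes that this rule names are not reported here. The overlap of exons was counted in the deposited annotation, and pseudogene copies were found by alignment to GENCODE M21. Sequences are from RefSeq. For 20 members no start-site window was used here.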

Additional observations from a re-analysis of the deposited data

How the results depend on the processing

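No paired analysis was possible because the replicate numbers of the groups (1 to 3 and 4 to 6) do not overlap. No member passed at an adjusted p of 0.05 under any of the alternatives run. The count of all genes called, 3, was 7 with library totals in place of TMM, 52 without the filter on low counts, 5 with at least 5 CPM, 23 with DESeq2, 13 with limma-voom and 1 to 19 when 1 library was left out. The count of members whose groups do not overlap, 2, was 1 with at least 5 CPM, where Rps27 was no longer tested. It was 4 to 20 when 1 library was left out, with fewer libraries to separate. The share over all tested genes was not taken in these settings, so these counts have no background and are not read as a result. The members' median log2 fold change, 0.11, ran from -0.13 (without anti-PD-1 6) to 0.23 (without anti-PD-1 5), the large subunit's from -0.15 to 0.20 and the small subunit's from -0.05 to 0.38. With limma-voom the members' median was 0.02 and the large subunit's -0.02. The ratio of the share of counts in members between groups, 1.11, ran from 0.951 (without anti-PD-1 6) to 1.23 (without untreated 3).

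No gene named by the rule above changed sides of the adjusted threshold, but signs turned. The neutrophil marker Ltf, outside that rule and lower after anti-PD-1, passed with DESeq2. Of the 9 resting T cell markers, 2 passed with DESeq2 and 2 with limma-voom, against 1 in edgeR. With limma-voom the sign turned for Rpl32 (-0.10), Rpl3 (-0.068), Rpl22 (-0.035) and Rpl5 (-0.060). Leaving out 1 library turned the sign of further log2 fold changes, all from genes that had not passed. They ran for Rpl4 from -0.086 to 0.23, for Rpl32 from -0.37 to 0.31, for Rps20 from -0.21 to 0.64, for Rpl29 from -0.25 to 0.61, for Rpl35a from -0.85 to 0.0093, for Rps15a from -0.44 to 0.014, for Rpl3 from -0.13 to 0.27, for Rpl22 from -0.38 to 0.20. They ran for Rpl39 from -0.88 to 0.22, for Fau from -0.063 to 0.35, for Rpl36al from -0.13 to 0.018, for Rplp2 from -0.080 to 0.79, for Rpl5 from -0.26 to 0.23, for Rps6 from -0.32 to 0.10, for Rps3 from -0.072 to 0.064, for Rpl38 from -0.35 to 0.033, for Rps19 from -0.40 to 0.018. In most of them the lowest value came without anti-PD-1 library 6, and the cause was not tested.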
